A study of Mus musculus with 18 samples.

Results

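The myotubularin family of lipid phosphatases was followed at the transcript level in mouse oocytes that lacked, or retained, the lipid kinase VPS34. The members were the 10 rows of the count table that carry the symbols Mtm1, Mtmr1, Mtmr2, Mtmr3, Mtmr4, Mtmr6, Mtmr7, Mtmr9, Mtmr12 and Mtmr14, out of 55291 gene rows. The knockout (ZcKO) oocytes came from 5-week-old females that were homozygous for a floxed Vps34 gene (symbol Pik3c3) and carried Zp3-Cre, a transgene active in growing oocytes and not in the surrounding follicle cells. The control oocytes came from females of the same age with the same floxed alleles on both chromosomes and no Cre, so no group had an unmodified Vps34 gene. Oocytes were taken either after ovulation, at metaphase II (MII), 14 h after the ovulating hormone hCG, or before meiosis resumed, with an intact germinal vesicle (GV), 46 h after PMSG, a hormone that makes follicles grow. Each of the 4 groups (MII ZcKO, MII control, GV ZcKO, GV control) had 3 libraries, and each library pooled 5 oocytes. No label ties a library to an animal, so the p-values measure the spread between these libraries, which may be technical in part.

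VPS34 phosphorylates phosphatidylinositol at the 3 position of the inositol ring and so makes PI3P, the lipid that marks early endosomes and autophagosomes. Myotubularins take the same phosphate off again, from PI3P and from PI(3,5)P2, and thereby oppose the kinase. Some members have lost the catalytic residues and act as partners of active ones: MTMR9 binds MTMR6 and MTMR7, and MTMR12 binds MTM1. In humans, mutations of MTM1 cause X-linked myotubular myopathy and mutations of MTMR2 cause a demyelinating Charcot-Marie-Tooth neuropathy. MTMR3 and MTMR4 carry a FYVE domain, a fold best known for binding PI3P, and MTMR14, also called Jumpy, acts on PI3P at forming autophagosomes.

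The members split into 8 active enzymes and 2 inactive partners at a short loop that starts with the catalytic cysteine and ends with an arginine. The coding sequence around this loop is shown because it separates the 2 classes by which the results are ordered. It was read from GENCODE M21 transcripts on GRCm38 (the same build as mm10), 5′ to 3′ on the coding strand, with the codons at the place of the cysteine and of the arginine in capitals:
Mtmr14: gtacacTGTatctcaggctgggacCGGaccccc
Mtmr2: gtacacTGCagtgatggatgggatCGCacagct
Mtmr7: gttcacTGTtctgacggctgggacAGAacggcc
Mtmr6: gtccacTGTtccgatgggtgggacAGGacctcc
Mtmr4: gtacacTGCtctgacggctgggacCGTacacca
Mtmr3: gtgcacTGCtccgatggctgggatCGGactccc
Mtm1: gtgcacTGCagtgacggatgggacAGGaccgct
Mtmr1: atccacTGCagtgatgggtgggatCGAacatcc
Mtmr9: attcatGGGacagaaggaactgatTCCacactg
Mtmr12: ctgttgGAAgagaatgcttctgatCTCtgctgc
The first 8 sequences hold a cysteine codon and an arginine codon at these places. Mtmr9 and Mtmr12, placed by alignment of their translated sequences to that of Mtmr2, hold neither. Among the residues aligned between translated proteins, Mtmr1 and Mtm1 were the members nearest to Mtmr2, at 69.2% and 63.1% identical. Mtmr14 was the most distant member, at 22.1%.

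The genes lie apart except for one pair. On GRCm38, Mtmr14 (ENSMUSG00000030269.14) spans chr6:113237843-113281392 on the plus strand, Mtmr2 (ENSMUSG00000031918.16) spans chr9:13748410-13806481 on the plus strand, and Mtmr7 (ENSMUSG00000039431.16) spans chr8:40551095-40634797 on the minus strand. Mtmr6 lies at chr14:60265228-60302370 (plus) and Mtmr9, which encodes its inactive partner, on the same chromosome at chr14:63519651-63543982 (minus). Mtmr4 is at chr11:87592162-87616302 (plus), Mtmr3 at chr11:4480868-4594863 (minus) and Mtmr12 at chr15:12205028-12274496 (plus). Mtm1, at chrX:71210767-71315691, is the upstream neighbour of Mtmr1, at chrX:71364760-71419196, on the plus strand of the X chromosome. Mtmr7 shares 40 exonic bases with Vps37a on the opposite strand. The strand setting of the counting is unknown here, so reads from these bases cannot be told apart.

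RNA was amplified by Smart-seq2, which primes on the poly(A) tail, so a level here is that of transcripts captured by their tail. Libraries held 2609783 to 4696626 gene counts, and levels are given as CPM, the count of a gene scaled by the library's total over genes. Counts of the gene entries were 1.51 to 2.42 times those of the added ERCC spike-in RNAs in MII libraries, and 4.35 to 13.1 times in GV libraries. Summed CPM of 14 oocyte markers was 18667 to 22636 in MII libraries and 37753 to 55380 in GV libraries, and 1 of these markers was at 0 in 1 library. Summed CPM of 22 cumulus and granulosa cell markers was 941 to 1792 in MII libraries and 350 to 603 in GV libraries, with 3 to 9 of them at 0 in a library. Blood and immune markers (10 genes) summed to 3.33 to 7.60 CPM in MII libraries and 47.3 to 78.6 CPM in GV libraries, with 5 to 9 at 0. Less RNA per oocyte and poorer capture cannot be told apart in these pools.

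The targeted gene was low in the ZcKO libraries at both stages. Pik3c3 stood at 5.36, 2.42 and 3.21 CPM in MII ZcKO libraries, against 10.6, 21.4 and 17.1 CPM in MII control libraries. It stood at 1.56, 1.65 and 2.67 CPM in GV ZcKO libraries, against 35.5, 28.8 and 25.8 CPM in GV control libraries. The groups did not overlap at either stage. In edgeR's quasi-likelihood test across all genes Pik3c3 was 15.7-fold lower in GV ZcKO oocytes (log2 difference -3.97 with an SE of 0.32, adjusted p = 0.000151), while the MII difference of -2.19 (SE 0.39) did not pass the adjusted threshold of 0.05 (adjusted p = 0.53).

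Per length of exon, Mtmr14 was the myotubularin transcript with the highest level in each group. It averaged 45.8 ± 9.66 CPM per kb in MII ZcKO oocytes, 66.0 ± 3.30 CPM per kb in MII control oocytes, 237 ± 15.3 CPM per kb in GV ZcKO oocytes and 256 ± 61.6 CPM per kb in GV control oocytes (SD, n = 3 each). In each of these groups its lowest library lay above the highest library of any other member. Without division by length this did not hold in MII ZcKO oocytes, where Mtmr2 averaged 143 ± 4.25 CPM and Mtmr14 138 ± 29.0 CPM (SD, n = 3 each). In MII oocytes Mtmr2 came next, at 29.2 ± 0.865 CPM per kb in ZcKO and 20.5 ± 5.61 CPM per kb in control (SD, n = 3 each), where its range overlapped that of Mtmr7. In GV oocytes Mtmr7 came next, at 24.1 ± 12.1 CPM per kb in ZcKO and 20.7 ± 3.31 CPM per kb in control, but its range overlapped that of Mtmr2 in both genotypes. Mtmr4 averaged 5.91 to 10.8 CPM per kb over the groups, Mtmr9 3.38 to 8.92, Mtmr6 1.60 to 4.46 and Mtmr3 2.31 to 3.19. Mtmr12, Mtm1 and Mtmr1 closed the order in every group, with means of 0.0506 to 0.604 CPM per kb. Their order among themselves depends on the length used. For Mtm1 the union of exons is 13935 bases and the annotated transcript read for its sequence 3488 bases, against 7041 and 6840 for Mtmr12.

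**Figure D1:**
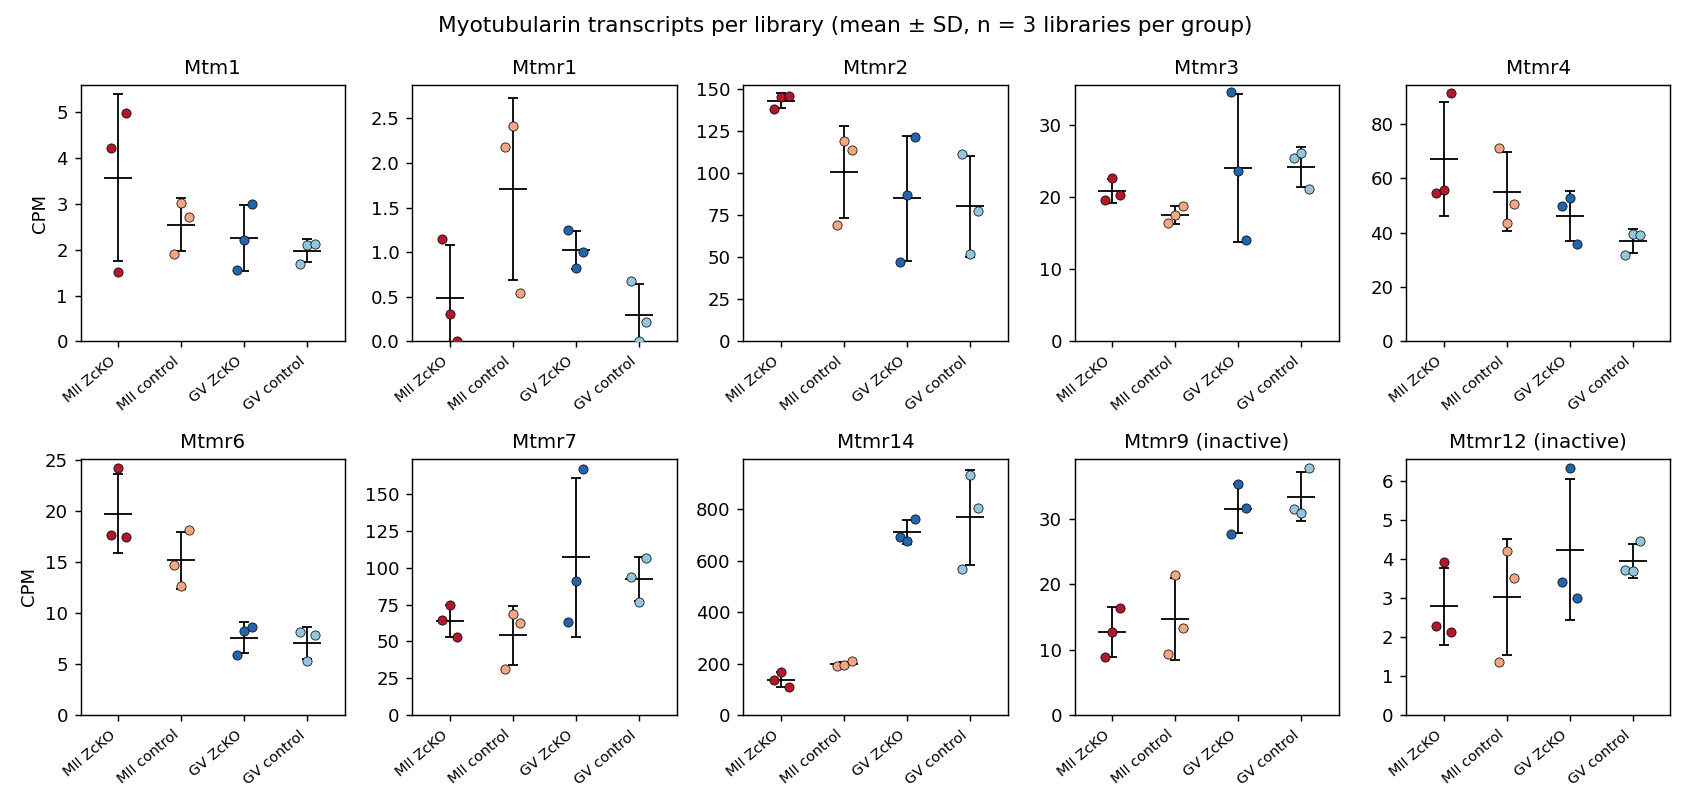
Level of each member in CPM (vertical axis, from 0, with its own scale in each panel) in every library of the 4 groups; points are libraries, and bars are the mean ± SD of 3 libraries. Mtmr14 sits between 109 and 209 CPM in the MII libraries and between 570 and 935 CPM in the GV libraries, while Mtmr6 and Mtmr4 have their higher points at MII.

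The next question was how each member differed between MII and GV oocytes, which brackets the time when the oocyte resumes meiosis and degrades part of its stored RNA without making new transcripts. Relative to all other genes, Mtmr14 and Mtmr9 fell and Mtmr6 and Mtmr4 rose in both genotypes, and Mtmr2 rose in ZcKO oocytes, but every rise turned into a lower value when libraries were scaled to the spike-ins. Of the 8 members that passed the filter on low counts, 3 were higher and 2 lower at MII in ZcKO oocytes, where 29.5% of the 11607 tested genes were higher and 34% lower. In control oocytes 2 were higher and 2 lower, beside 30.1% and 33.8% of the tested genes. The median log2 change of the 8 members was -0.27 in ZcKO and -0.30 in control oocytes, against -0.04 and 0.01 over all tested genes. These shares lie near the background, so the family as a whole did not stand out, and the result is about its single members.

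Among the active enzymes, Mtmr14 changed most. It stood at 138, 167 and 109 CPM in MII ZcKO libraries and at 190, 196 and 209 CPM in MII control libraries, against 694, 678 and 764 CPM in GV ZcKO libraries and 570, 935 and 805 CPM in GV control libraries. No MII library reached the lowest GV library. Mtmr14 was 4.69-fold lower at MII in ZcKO oocytes (log2 change -2.23 with an SE of 0.21, adjusted p = 5.45e-08, edgeR) and 3.55-fold lower in control oocytes (-1.83, SE 0.21, adjusted p = 5.52e-07). Leaving out any single library kept the log2 change between -2.38 and -2.12 in ZcKO and between -2.03 and -1.61 in control oocytes.

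Mtmr6, which encodes the active partner of MTMR9, went the other way. Its levels were 17.6, 24.2 and 17.5 CPM in MII ZcKO libraries and 14.7, 12.7 and 18.2 CPM in MII control libraries, against 5.91, 8.27 and 8.66 CPM in GV ZcKO libraries and 8.12, 5.28 and 7.88 CPM in GV control libraries. Every MII library lay above every GV library. The log2 change was 1.52 in ZcKO (SE 0.29, adjusted p = 0.000196, edgeR) and 1.24 in control oocytes (SE 0.29, adjusted p = 0.00113), but -0.73 and -0.48 with spike-in scaling, where neither passed (adjusted p = 0.172 in ZcKO and 0.392 in control).

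Mtmr4, a FYVE domain member of early and recycling endosomes, was higher at MII by less. It stood at 54.4, 55.7 and 91.2 CPM in MII ZcKO libraries and 71.2, 43.5 and 50.5 CPM in MII control libraries, against 49.8, 52.6 and 35.7 CPM in GV ZcKO libraries and 31.8, 39.6 and 39.2 CPM in GV control libraries. The stages did not overlap within either genotype, although MII ZcKO library 3 and MII control library 1 stood above the others of their groups. The log2 change was 0.69 in ZcKO (SE 0.28, adjusted p = 0.0378, edgeR) and 0.73 in control oocytes (SE 0.28, adjusted p = 0.0286), and it was -1.76 and -1.09 with spike-in scaling. The call rested on single libraries. Without MII ZcKO library 3 the log2 change was 0.36 (adjusted p = 0.286), without GV ZcKO library 3 it was 0.50 (adjusted p = 0.135), and DESeq2 gave an adjusted p of 0.0549. In control oocytes it was 0.43 without MII control library 1 (adjusted p = 0.193), 0.60 without GV control library 1 (adjusted p = 0.113) and 0.77 without GV control library 3 (adjusted p = 0.0533).

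Mtmr2, the member that pairs with the inactive proteins SBF1 and SBF2, rose in ZcKO oocytes. It stood at 138, 146 and 146 CPM in MII ZcKO libraries and 69.0, 119 and 114 CPM in MII control libraries, against 47.3, 86.8 and 121 CPM in GV ZcKO libraries and 112, 52.0 and 77.5 CPM in GV control libraries. The stages separated in ZcKO oocytes and overlapped in control oocytes, and both GV groups were widely spread. The log2 change was 0.91 in ZcKO (SE 0.28, adjusted p = 0.00745, edgeR) and 0.47 in control oocytes (SE 0.27, adjusted p = 0.145), and it was -1.30 and -1.17 with spike-in scaling. Without GV control library 1 the control change was 0.72 (adjusted p = 0.047).

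Mtmr7, the other active partner of MTMR9, and Mtmr3 did not pass in either genotype. Mtmr7 had 64.4, 74.8 and 52.8 CPM in MII ZcKO libraries and 31.1, 68.8 and 62.5 CPM in MII control libraries, against 63.1, 90.9 and 167 CPM in GV ZcKO libraries and 93.7, 77.0 and 106 CPM in GV control libraries. All MII control libraries were below all GV control libraries, while the ZcKO stages overlapped. Its log2 change was -0.58 in ZcKO (SE 0.29, adjusted p = 0.0822, edgeR) and -0.65 in control oocytes (SE 0.29, adjusted p = 0.0527). The ZcKO value passed without GV ZcKO library 1 (-0.84, adjusted p = 0.0128) and the control value without MII control library 2 (-0.82, adjusted p = 0.0358) and, with 12 libraries, under RLE scaling (adjusted p = 0.0399). Mtmr3, which like Mtmr4 has a FYVE domain, was at 19.5, 22.7 and 20.3 CPM in MII ZcKO libraries and 16.4, 17.5 and 18.7 CPM in MII control libraries, against 34.5, 23.7 and 14.0 CPM in GV ZcKO libraries and 25.4, 26.1 and 21.1 CPM in GV control libraries. Its log2 change was -0.08 in ZcKO (SE 0.29, adjusted p = 0.819, edgeR) and -0.32 in control oocytes (SE 0.29, adjusted p = 0.341).

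Of the inactive partners, Mtmr9 fell and Mtmr12 did not pass. Mtmr9 stood at 8.81, 12.7 and 16.4 CPM in MII ZcKO libraries and 9.27, 21.4 and 13.3 CPM in MII control libraries, against 27.7, 35.3 and 31.7 CPM in GV ZcKO libraries and 31.5, 30.9 and 37.7 CPM in GV control libraries, with no overlap between stages. It was 2.24-fold lower at MII in ZcKO oocytes (log2 -1.16, SE 0.29, adjusted p = 0.00209, edgeR) and 2.10-fold lower in control oocytes (-1.07, SE 0.28, adjusted p = 0.00308). Mtmr9 thus moved opposite to Mtmr6 relative to all genes, but with spike-in scaling both were lower at MII, Mtmr9 by -3.52 and Mtmr6 by -0.73 on the log2 scale in ZcKO oocytes. Mtmr12 stood at 2.30, 3.94 and 2.14 CPM in MII ZcKO libraries and 1.36, 4.23 and 3.53 CPM in MII control libraries, against 3.42, 6.34 and 2.999 CPM in GV ZcKO libraries and 3.72, 3.69 and 4.47 CPM in GV control libraries. Its log2 change of -0.46 in ZcKO (SE 0.49, adjusted p = 0.422, edgeR) and -0.27 in control oocytes (SE 0.47, adjusted p = 0.624) was within its error.

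The X-linked pair was near the limit of detection and did not pass the filter. Mtm1 had 11, 5 and 14 counts in MII ZcKO libraries and 7, 10 and 10 counts in MII control libraries, against 5, 8 and 9 counts in GV ZcKO libraries and 5, 8 and 10 counts in GV control libraries. Mtmr1 had 3, 1 and 0 counts in MII ZcKO libraries and 8, 8 and 2 counts in MII control libraries, against 4, 3 and 3 counts in GV ZcKO libraries and 2, 0 and 1 counts in GV control libraries. Each group of Mtm1 overlapped the others. Without the filter, Mtmr1 passed edgeR's test between MII and GV control oocytes (adjusted p = 0.0428), and in DESeq2 it did not (adjusted p = 0.0631). These counts hold too few reads to rank the pair or to give a fold.

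Scaling to the ERCC spike-ins gave captured transcripts relative to the added RNA instead of a share of the library. RNA content and capture remain mixed on this scale. With 5 oocytes in each library, the ratio of gene to spike-in counts still ran from 6.29 to 13.1 in GV ZcKO libraries. It ran from 4.35 to 8.69 in GV control libraries. On this scale each of the 8 tested members had a negative log2 change, and so did the median gene, at -2.37 in ZcKO and -1.72 in control oocytes. Mtmr14 was at -4.54 in ZcKO and -3.61 in control oocytes, below that median, and Mtmr6 at -0.73 and -0.48, above it. With an adjusted p under 0.05 in the same edgeR test, 0 members were then higher and 7 lower in each genotype, beside 93 genes higher and 10209 lower in ZcKO and 65 higher and 8141 lower in control oocytes. Genes of one library share its spike-in error, so the p-values on this scale are too small. The lower oocyte marker sums and higher cumulus and granulosa marker sums of MII libraries, given above, are in CPM. With spike-in scaling, 5 of 15 tested cumulus and granulosa markers were higher and 4 lower at MII in ZcKO oocytes. In control oocytes 4 were higher and 5 lower, and all 14 oocyte markers were lower in both genotypes. The part of either marker list in the changes of the members was not tested.

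**Figure D2:**
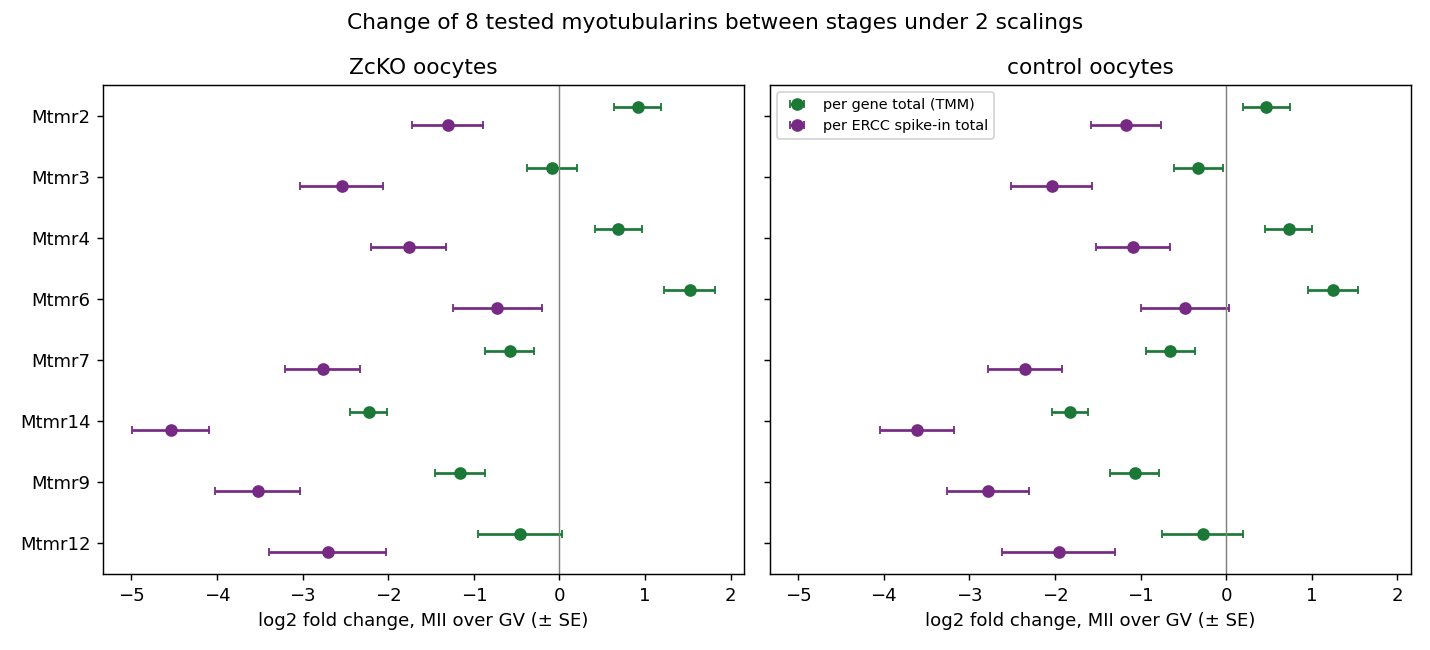
Log2 fold change between MII and GV oocytes (horizontal axis, MII over GV, bars ± SE) of the 8 tested members in ZcKO (left) and control oocytes (right), from fits of 12 libraries; green points scale to gene counts with TMM and purple points to spike-in counts. Green points lie on both sides of 0, with Mtmr6 at 1.52 and Mtmr14 at -2.23 in ZcKO, and all purple points lie below 0.

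Mtmr14 held most of the family's counts in GV oocytes, and the make-up of the family differed between stages. The summed level of the 10 members was 472 ± 31.7 CPM in MII ZcKO and 463 ± 48.5 CPM in MII control oocytes, against 1021 ± 115 CPM in GV ZcKO and 1050 ± 153 CPM in GV control oocytes (SD, n = 3 each). Without Mtmr14 the sum was 334 ± 21.1 CPM in MII ZcKO and 265 ± 41.4 CPM in MII control oocytes, against 309 ± 75.5 CPM in GV ZcKO and 280 ± 38.3 CPM in GV control oocytes, and these ranges overlapped between stages in both genotypes. Per 1000 spike-in counts the sum of the 10 was 0.909 ± 0.214 in MII ZcKO and 1.02 ± 0.238 in MII control oocytes, against 8.90 ± 2.82 in GV ZcKO and 7.20 ± 3.01 in GV control oocytes.

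Mtmr14 made up 30.7%, 32.8% and 23.6% of the family's counts in MII ZcKO libraries and 46.7%, 40.1% and 42.5% in MII control libraries, against 74.7%, 68.8% and 66.5% in GV ZcKO libraries and 64.9%, 79.8% and 73.1% in GV control libraries. The 2 genotypes did not overlap at MII and did overlap at GV. By CPM, 8.19% of tested genes were higher and 7.57% lower in all MII ZcKO libraries than in all MII control libraries. The shares were not tested. They restate the counts of Mtmr14 and Mtmr2, neither of which passed between genotypes at MII (adjusted p = 0.53 each, edgeR). Mtmr2 filled much of the difference at MII, with 30.8%, 28.6% and 31.7% of the counts in MII ZcKO libraries and 16.9%, 24.4% and 23.1% in MII control libraries. The ratio of Mtmr14 to Mtmr2 counts within a library, which no scaling can change, was 0.997, 1.15 and 0.746 in MII ZcKO libraries and 2.75, 1.64 and 1.84 in MII control libraries. In GV oocytes the ratio was 14.7, 7.81 and 6.30 in ZcKO libraries and 5.11, 17.99 and 10.4 in control libraries, with overlap. This ratio was chosen after the values were seen and is given without a test.

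**Figure D3:**
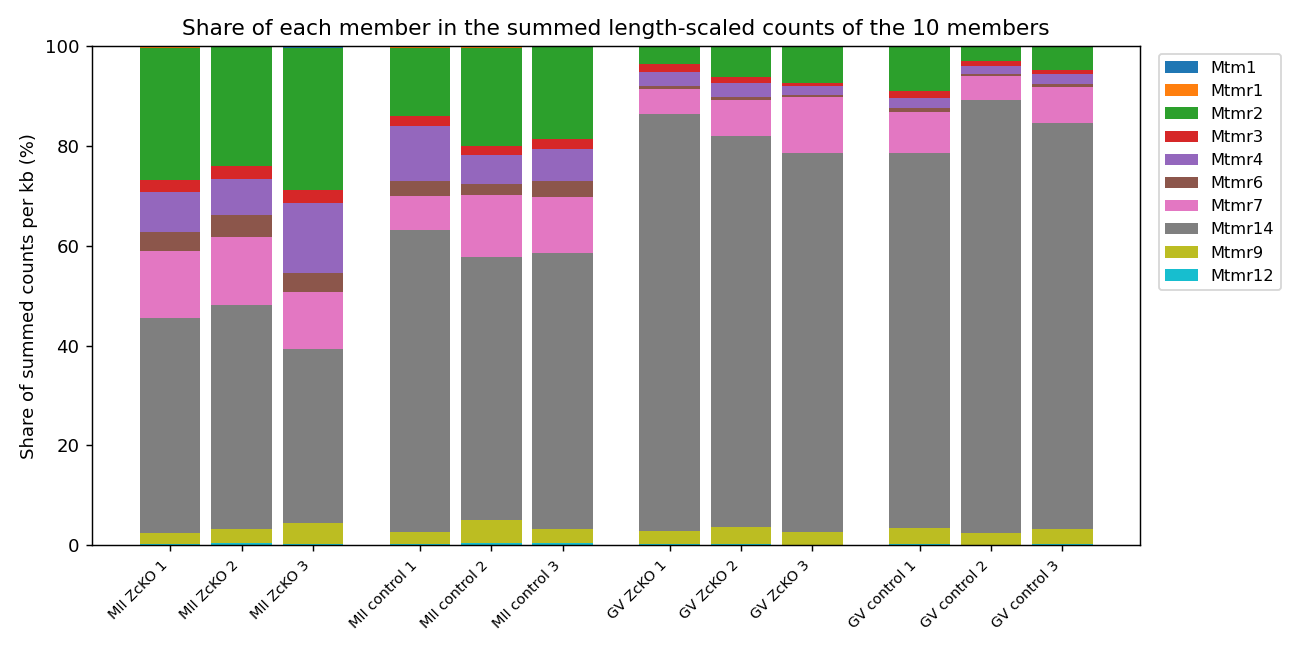
Share of each member in the summed counts per kb of exon (vertical axis, %) in each of the 12 libraries, one stacked bar per library, ordered by group. The Mtmr14 block averages 40.9% in MII ZcKO and 56.2% in MII control libraries, against 79.2% in GV ZcKO and 81.0% in GV control libraries, and the Mtmr2 block averages 26.3% in MII ZcKO and 17.1% in MII control libraries.

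The comparison of genotypes asked whether loss of the PI3P kinase was accompanied by a change in the transcripts of the enzymes that remove PI3P. No member passed at either stage. In MII oocytes 0 of 8 tested members passed, where 0% of the 9677 tested genes did (0 genes in edgeR, 1 in DESeq2, and 872 genes, or 9.01%, at an unadjusted p under 0.05). Mtmr14 had the largest difference, a log2 fold change of -0.56 (SE 0.17, unadjusted p = 0.00654, adjusted p = 0.53, edgeR), with all MII ZcKO libraries below all MII control libraries. Leaving out single libraries gave -0.71 to -0.44, with adjusted p of 0.222 to 0.806. Mtmr2 had 0.49 (SE 0.19, unadjusted p = 0.0263, adjusted p = 0.53) and Mtmr3 0.22 (SE 0.23, adjusted p = 0.761), each with all MII ZcKO libraries above all MII control libraries. Groups separated upwards for 2 of the 8 members, beside 8.19% of tested genes, and downwards for 1, beside 7.57%. Per spike-in count the ranges of these 3 members overlapped between genotypes.

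The other 5 members had differences at MII from -0.22 for Mtmr9 (SE 0.36) to 0.34 for Mtmr6 (SE 0.27), with adjusted p between 0.679 and 0.949. The median over the 8 members was 0.22, against 0.02 over all tested genes. The MII ZcKO libraries also held fewer gene counts, 2609783 to 3303644 against 3312764 to 3682573 in MII control libraries, and a lower oocyte marker sum, 18667 to 19509 CPM against 20976 to 22636 CPM. Their part in these differences was not tested.

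In GV oocytes 0 of 8 tested members passed, where 0.0825% of the 10911 tested genes did. The log2 differences ran from -0.17 for Mtmr14 (SE 0.21) to 0.27 for Mtmr4 (SE 0.23), each with an adjusted p of 1 in edgeR. The median over the 8 was 0.05, against 0.01 over all tested genes. All 8 members overlapped between GV ZcKO and GV control libraries, whereas 4.96% of the tested genes were higher in all GV ZcKO libraries and 2.3% lower. With 3 libraries per group an SE of 0.21 to 0.41 leaves room for undetected differences, most of all for Mtmr12, whose SE was 0.41.

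**Figure D4:**
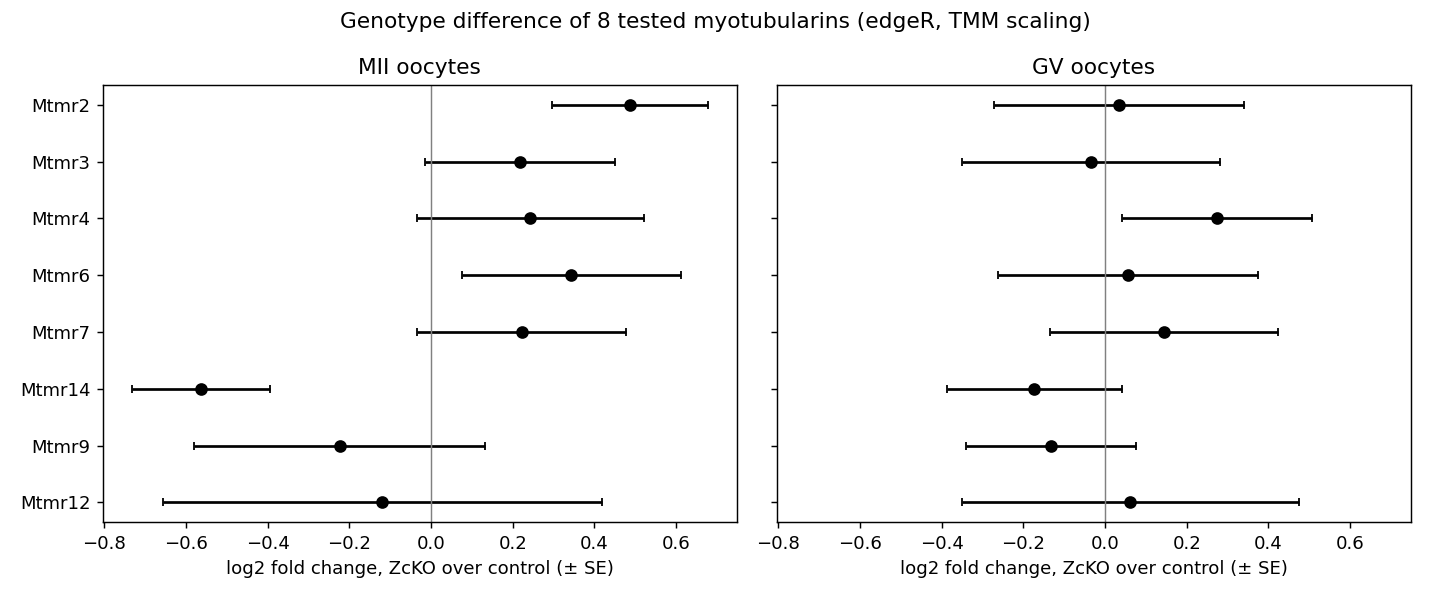
Log2 fold change between genotypes (horizontal axis, ZcKO over control, bars ± SE) of the 8 tested members in MII (left) and GV oocytes (right), n = 3 libraries per group. Mtmr14 at -0.56 and Mtmr2 at 0.49 lie farthest from 0 at MII, and neither passes the adjusted threshold.

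The change between stages did not differ detectably between genotypes for any member. The interaction, which is the stage change in ZcKO minus that in control oocytes, passed for 0 of 8 members, beside 0.00862% of the tested genes. Mtmr2 had an interaction of 0.45 (SE 0.39, adjusted p = 0.895, edgeR), which became -0.13 with spike-in scaling. Its pass in ZcKO and not in control oocytes is therefore not shown to be a difference between genotypes. Mtmr14 had -0.40 (SE 0.29, adjusted p = 0.875), and the other members lay between -0.19 and 0.27.

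The remaining inactive myotubularins, which were not members, also went in different directions. Sbf2, a partner of Mtmr2, had 96.9, 102 and 146 CPM in MII ZcKO libraries and 80.7, 104 and 118 CPM in MII control libraries, against 48.8, 52.3 and 39.0 CPM in GV ZcKO libraries and 49.7, 38.3 and 47.9 CPM in GV control libraries. Sbf2 rose at MII (log2 1.44 in ZcKO and 1.29 in control oocytes, adjusted p = 2.09e-05 and 6.44e-05, edgeR), but with spike-in scaling it was at -0.98 and -0.42. Sbf1, the second partner, fell (-2.51 in ZcKO and -1.62 in control oocytes, adjusted p = 0.000626 and 0.0098). Mtmr10 did not pass, although its stages did not overlap in either genotype. It ranged from 2.42 to 4.99 CPM in MII ZcKO and 2.45 to 4.62 CPM in MII control libraries. In GV libraries it ranged from 5.51 to 10.3 CPM in ZcKO and 5.01 to 8.73 CPM in control. Mtmr11, with 6 to 10 counts in each group of 3 libraries, was not tested.

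Kinases that make the substrates of myotubularins were the list with the highest median on the scale of gene totals. Of 12 kinases and subunits 11 were tested, with 6 higher and 2 lower at MII in ZcKO and 6 higher and 3 lower in control oocytes, and medians of 0.77 and 0.52, where 29.5% of tested genes were higher and 34% lower in ZcKO and 30.1% higher and 33.8% lower in control oocytes. The deleted gene Pik3c3 is in these counts, among the higher in ZcKO (1.02, SE 0.44, adjusted p = 0.0496, edgeR, with 31 counts in the MII group, 19 in the GV group and overlapping ranges) and among the lower in control oocytes (-0.74, SE 0.29, adjusted p = 0.0306). Its ZcKO call was lost in DESeq2 (adjusted p = 0.0902), and with spike-in scaling it was at -1.20. On that scale the medians of the list became -1.46 and -1.22, and 0 were higher and 7 lower in ZcKO and 0 higher and 6 lower in control oocytes. Of all 11607 tested genes, 93 were then higher and 10209 lower in ZcKO, and 65 higher and 8141 lower in control oocytes. The medians over all tested genes were -2.37 in ZcKO and -1.72 in control oocytes. The class II kinases Pik3c2a (log2 2.11 in ZcKO and 1.51 in control oocytes, adjusted p = 2.45e-06 and 7.76e-05, edgeR) and Pik3c2b (1.97 and 1.43, adjusted p = 1.67e-06 and 5.21e-05) rose, and both were below 0 with spike-in scaling, between -0.34 and -0.15. Pik3c2g, with 35 counts in each MII group and 4 to 5 in each GV group, was above 0 on both scales (3.34 in ZcKO and 2.95 in control oocytes relative to genes, 1.27 and 1.28 relative to spike-ins). It did not pass as higher on the spike-in scale, and MII ZcKO library 1 held 22 of the 35 counts of its group. Pikfyve, which turns PI3P into PI(3,5)P2, rose in both genotypes (1.24 in ZcKO and 0.99 in control oocytes, adjusted p = 0.000118 and 0.000934) but was at -1.13 and -0.69 with spike-in scaling, while Vac14, the scaffold of that kinase, fell (-2.28 in ZcKO and -2.43 in control oocytes, adjusted p = 4.75e-06 and 2.08e-06). Pik3r4, the regulatory subunit of VPS34, fell as well (-1.19 and -1.28, adjusted p = 0.000204 and 9.34e-05), and Becn1, another subunit, was at 0.73 in ZcKO (adjusted p = 0.0724) and rose in control oocytes (1.48, adjusted p = 0.000968), with -0.33 under spike-in scaling in control oocytes.

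Phosphatases of other phosphoinositide positions and PI3P binding proteins were mixed, with shares to be read against the same background, and on the spike-in scale against the 10209 lower genes of 11607 in ZcKO and the 8141 in control oocytes. Of 14 tested phosphatases 5 were higher and 3 lower at MII in ZcKO and 5 higher and 2 lower in control oocytes, which with spike-in scaling became 0 higher and 12 lower in ZcKO and 0 higher and 10 lower in control oocytes. The 4-phosphatase Inpp4a rose (1.69 in ZcKO and 1.97 in control oocytes, adjusted p = 1.58e-05 and 3.05e-06, edgeR), with -0.50 and 0.30 on the spike-in scale. The 5-phosphatases Inpp5b and Inpp5k fell, at -2.09 and -2.18 in ZcKO oocytes (adjusted p = 5.43e-06 and 0.000103). Of 17 tested PI3P binding proteins 6 were higher and 5 lower at MII in each genotype, and with spike-in scaling 0 were higher and 17 lower in ZcKO and 0 higher and 10 lower in control oocytes. The endosome tether Eea1 rose (1.10 in ZcKO and 1.15 in control oocytes, adjusted p = 5.03e-05 and 3.22e-05) but was at -1.32 and -0.59 with spike-in scaling, whereas the sorting protein Hgs (-2.27 and -2.66, adjusted p = 1.43e-06 and 2.63e-07) and the autophagy protein Wipi2 (-3.01 and -2.44, adjusted p = 6.13e-07 and 3.79e-06) fell. Between genotypes, Pik3c3 at GV was the single gene of these 4 lists that passed, and 0 passed at MII or in the interaction.

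Cytoplasmic polyadenylation elements in the last bases of a transcript direct tail lengthening in maturing oocytes, so the 3′ ends were searched for TTTTAT and TTTTAAT on the transcript strand. In the last 100 bases of the annotated transcripts the element was found in 1 of the 10 members, Mtmr2, and in 17.9% of 19287 genes. The Mtmr2 site is shown because it was the only match among the members, with the element in capitals. The stretch stops short of the annotated end, which lies 19 bases after the element:
Mtmr2 3′ site: acttggtcTTTTAATtaaatgacttca
A match is a run of letters and not a tested site, and this one overlaps ATTAAA, a form of the poly(A) signal. Any part of the element in the stage changes was not tested. Relative to all genes, Mtmr2 passed as higher at MII in ZcKO and not in control oocytes (adjusted p = 0.145, edgeR). With spike-in scaling its log2 change was -1.30 in ZcKO and -1.17 in control oocytes. Mtmr6 and Mtmr4, which passed as higher in both genotypes, had no match in this window.

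Across the 12 libraries, the genes whose log2 CPM followed that of Mtmr14 most closely were Tle6 (Pearson r = 0.992), Nup188 (r = 0.991) and Gm32983 (r = 0.991). Tle6, a component of the subcortical maternal complex, had 166, 159 and 98.4 CPM in MII ZcKO libraries and 194, 218 and 195 CPM in MII control libraries, against 2369, 2084 and 2280 CPM in GV ZcKO libraries and 1829, 2876 and 2170 CPM in GV control libraries. As for Mtmr14, all MII ZcKO libraries were below all MII control libraries, as in 7.57% of tested genes. Tle6 was picked for following Mtmr14 over these same libraries, so this shared order is not a separate result. Within the family, r with Mtmr14 was 0.87 for Mtmr9, 0.63 for Mtmr7, -0.64 for Mtmr2, -0.72 for Mtmr4 and -0.92 for Mtmr6. The libraries fall into 2 stages, so these values describe mostly the stage difference.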

How the data were processed

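The table that the authors deposited holds raw counts of reads, as whole numbers without normalization, in 55291 gene rows and 92 ERCC rows. Reads were handled with fastp, HISAT2 and featureCounts on mm10, per the submitters' processing notes. Neither the annotation nor the strand setting nor the handling of multiply mapped reads is given in the sources used here. Of 18 samples, 12 were used, and the 2-cell samples are not analysed here. The column letter C was read as control and T as ZcKO. The sample titles use neither letter and the Pik3c3 counts had been seen, so every genotype direction rests on this reading. Another 6 columns matched no label and were not used.

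Genes were tested with edgeR 4.0.16 (R 4.3.3): TMM scaling, filterByExpr, robust quasi-likelihood test, and Benjamini-Hochberg adjustment over all tested genes with a threshold of 0.05. Genotype was tested in the 6 libraries of a stage, and stage and interaction in 1 fit of 12. SE is the log2 fold change divided by the root of F. Spike-in scaling used ERCC totals as library sizes. CPM uses gene totals without TMM factors, and lengths are the union of exons. Alternatives were RLE scaling, other filters, DESeq2 1.42.0, a replicate term, other sets of libraries and leaving out each library. Scripts were tested on simulated counts with 100 planted changes of each size and a spread not fitted to these data. Of the 2-fold changes, 8 were recovered for genotype at GV, 6 for genotype at MII and 1 for the interaction. Of the 4-fold changes, 64, 67 and 14 were recovered in that order. Between stages, 6 of the 2-fold and 67 of the 4-fold changes were recovered in ZcKO, and 7 and 74 in control oocytes. In the data far more genes passed between stages, 7372 of 11607 in ZcKO and 7418 in control oocytes. The recovery between stages in the simulation therefore does not describe the power of that comparison here. Samples were grouped by their labels, and no pair of libraries of a group agreed within sampling noise (chi-square per degree of freedom at least 5.38). Translated sequences were aligned with Biopython 1.88.

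The members and gene lists were chosen with earlier results of these data known. By rule, the 10 members, Pik3c3, and from each list the genes that passed (at most 4 per direction, otherwise the 2 with the smallest p) could be named, and likewise the 3 genes most correlated with the highest member on log2 CPM (prior count 2). The ratio of Mtmr14 to Mtmr2 counts was added after the values were seen.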

Additional observations from a re-analysis of the deposited data

How the results depend on the processing

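Over the alternatives run, spike-in scaling turned the sign of the most values. The stage change became -1.30 for Mtmr2, -1.76 for Mtmr4 and -0.73 for Mtmr6 in ZcKO oocytes, and -1.17, -1.09 and -0.48 in control oocytes, where 7 members passed. Genotype differences at GV became 0.57 for Mtmr3, 0.24 for Mtmr14 and 0.27 for Mtmr9. Interactions became -0.13 for Mtmr2, -0.51 for Mtmr3, -0.25 for Mtmr6 and -0.42 for Mtmr7. The log2 difference of the summed family became 0.31 between genotypes at GV (main value -0.04), -0.17 at MII (0.03), -3.29 between stages in ZcKO (-1.11) and -2.81 in control oocytes (-1.18). Counts of genes past the threshold also moved. At GV there were 9 genes in edgeR, 3 with 12 libraries in the fit and 28 without a filter. At MII there were 96 without a filter and 1 in DESeq2, against 0. The interaction had 3 with spike-in scaling, 18 without a filter and 3 in DESeq2, against 1. The causes were not tested.

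Same-numbered libraries deviated from their group means with correlations of -0.225 to 0.209. Differently numbered libraries were not compared, so these values neither show nor exclude a pairing by replicate number. With a replicate block, 4 members passed between stages in ZcKO and 5 in control oocytes, and 11 genes passed between genotypes at GV. Mtmr4 did not pass in ZcKO with the block (0.68, adjusted p = 0.0551), Mtmr7 did in control oocytes (-0.69, adjusted p = 0.0301), and Pik3c3 did not between stages in ZcKO (adjusted p = 0.0674). 0 members passed between genotypes or in the interaction.

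Leaving out single libraries kept 0 members past the threshold between genotypes and in the interaction, and kept the stage calls of Mtmr14, Mtmr9 and Mtmr6 in both genotypes and of Mtmr2 in ZcKO oocytes. The number of members that passed between stages was 4 to 6 in ZcKO and 3 to 5 in control oocytes. Genes past the threshold numbered 2 to 10 at GV and 0 to 3 in the interaction. The signs of small differences were not stable. Genotype differences at GV ranged from -0.26 to 0.30 for Mtmr2, -0.42 to 0.26 for Mtmr3, -0.092 to 0.17 for Mtmr6, -0.28 to 0.38 for Mtmr7, -0.37 to 0.026 for Mtmr14 and -0.36 to 0.28 for Mtmr12. At MII they ranged from -0.079 to 0.54 for Mtmr4, -0.018 to 0.39 for Mtmr7, -0.48 to 0.11 for Mtmr9 and -0.45 to 0.14 for Mtmr12. The stage change ranged from -0.38 to 0.30 for Mtmr3 in ZcKO and -0.53 to 0.040 for Mtmr12 in control oocytes. Interactions ranged from -0.055 to 0.63 for Mtmr3, -0.38 to 0.26 for Mtmr4, -0.18 to 0.49 for Mtmr7, -0.36 to 0.23 for Mtmr9 and -0.52 to 0.22 for Mtmr12. Depth limits Mtm1, Mtmr1 and Mtmr12, which had 0 to 23 counts in a library.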
